A study of Saccharomyces cerevisiae with 5 samples.

Results

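Messenger RNA of 35 genes that remove peroxides and superoxide, or that keep thioredoxin and glutathione reduced, was compared between yeast lacking CHS2 and wild type. CHS2 encodes chitin synthase II, which builds the primary septum between mother and daughter cell. The 35 genes were chosen by name among the 6256 genes on the arrays. A gene was taken when the name or the open reading frame that the scanner files give for its spots was on a list of superoxide dismutases, catalases, thioredoxins, peroxiredoxins, glutaredoxins, glutathione enzymes, the regulators YAP1 and SKN7, and the dehydrogenases of the pentose phosphate pathway. All 35 were found, and each gave a ratio, since no filter on low signal was applied.

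Superoxide dismutases turn superoxide into hydrogen peroxide, which catalases and peroxidases then reduce to water. Peroxiredoxins are recharged by thioredoxin and thioredoxin reductase, glutathione peroxidases mostly by thioredoxin in yeast, and glutaredoxins by glutathione and glutathione reductase, with NADPH as the final source of electrons. Many of these enzymes exist in separate cytosolic and mitochondrial forms, and several cytosolic ones come as pairs of paralogues. Yap1 and Skn7 are transcription factors that induce many of these genes under peroxide, and Msn2 and Msn4 induce others in a general stress response.

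The tested strain, YFR23, carries a chs2::KANMX4 deletion made in its haploid wild-type parent, MGD353. Both are MATα, carry mutant alleles of TRP1, URA3, HIS3 and LEU2, so that they need tryptophan, uracil, histidine and leucine, and are resistant to cycloheximide. Each genotype was represented by 1 strain. Cultures were grown overnight at 26 °C to an optical density of 0.5 to 0.8 in complete synthetic medium with 2% glucose (the labels also name a medium without histidine), and 5 pairs of cultures were hybridized, 1 pair to each array. The labels call them biological replicates, although the series text also mentions triplicate cultures, and the p-values below measure the spread between these 5 arrays only. The chs2Δ cRNA carried Cy5 on replicates 1, 3 and 5 and Cy3 on replicates 2 and 4. Replicate 1 was alone on its slide, while replicates 2 and 3, and replicates 4 and 5, shared a slide as pairs of opposite dye orientation.

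Across the whole series the chs2Δ channel was the dimmer channel. Median signals above background ran from 77.5 to 197 intensity units in chs2Δ and from 213 to 431 in wild type. Between 74.0% and 83.0% of gene spots were above background in the chs2Δ channel, against 89.0% to 94.1% in the wild-type channel. Of the 35 genes, 30 to 34 were above background per array in chs2Δ, against 33 to 34 in wild type. CHS2 itself had a log2 ratio of chs2Δ over wild type of -0.81 (adjusted p = 0.00249 from limma, n = 5 arrays) and was lower on 5 of 5 arrays, but its chs2Δ signal remained above background on 4 arrays, and where its probe lies relative to the deletion the sources used here do not say. The array titles name another strain, that of the myosin mutant myo1Δ. The labels give YFR23 as the source on all 5 arrays, and the names of all 10 scanner files match the strains of the labels. MYO1 had a log2 ratio of -0.31 (adjusted p = 0.0013). The α-specific genes MF(ALPHA)1, MF(ALPHA)2, STE3 and SAG1 were above background in wild type on 5 of 5 arrays and in chs2Δ on 3 to 5 arrays, with log2 ratios of -2.53 to -2.11. Of the 6 a-specific genes STE6 was above background in chs2Δ on 5 arrays, AGA2 on 3 and MFA2 on 2, and MFA1, STE2 and BAR1 on 0. In wild type STE6 was above background on 5 arrays, AGA2 and MFA1 on 4, STE2 and BAR1 on 2, and MFA2 on 1. STE6 was higher in chs2Δ (log2 0.91, adjusted p = 3.69e-06 from limma), and the other a-specific genes were not called.

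Of the 35 genes, 20 were higher and 10 lower in chs2Δ, and 5 did not pass the test (limma, Benjamini-Hochberg adjusted p below 0.05 over 6246 genes). The called share of the 35 was 85.7%, against 71.6% of all genes tested, of which 35.7% were higher and 36.0% lower. Among the 35, 13 genes were at least 1.5-fold higher and 3 at least 1.5-fold lower, against 18.4% of all genes higher and 13.2% lower. The median log2 ratio of the 35 was 0.24, against -0.01 for all genes, and the median size of the change without its sign was 0.54, against 0.35. Each array was also centred on its median, without the loess curve that removes dye and intensity effects. Then 13 of the 35 were higher and 15 lower, against 2595 higher and 2597 lower of all 6246 genes. Under both scalings 20 of the 35 were called in the same direction. Ratios are relative to the centre of each array and hold no measure of total mRNA, and fewer transcripts per cell and fewer cells with the transcript cannot be told apart in RNA of whole cultures.

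**Figure D1:**
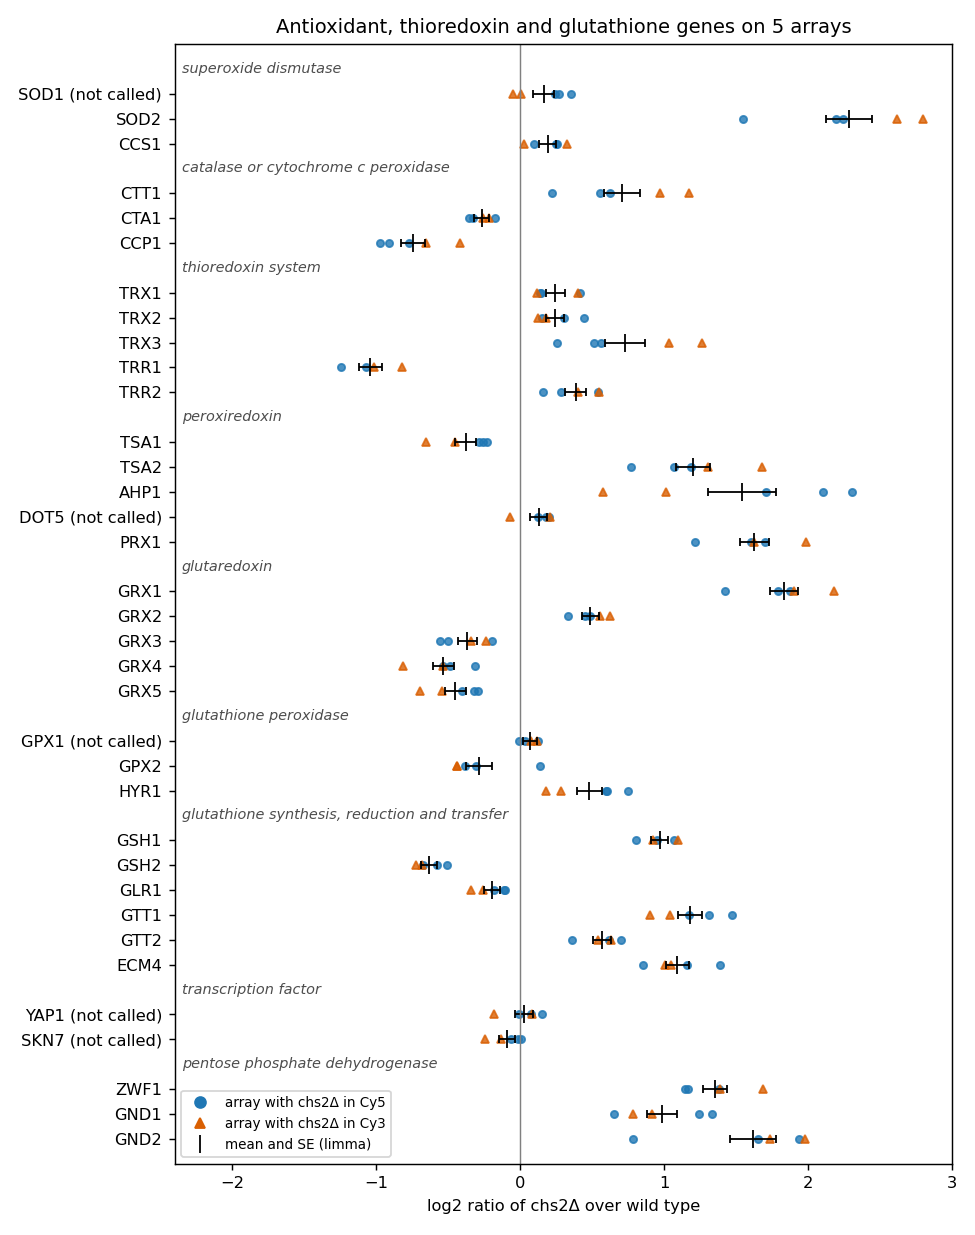
Log2 ratio of chs2Δ over wild type (horizontal axis) of the 35 genes, grouped by role. Points are single arrays, circles with chs2Δ in Cy5 and triangles with chs2Δ in Cy3, and the black bar is the mean with its SE from limma. SOD2 stands farthest right with a mean of 2.28 and TRR1 farthest left with -1.04.

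Of the superoxide dismutases, the mitochondrial one was higher in chs2Δ and the cytosolic one did not pass the test. SOD2 (YHR008C), the manganese enzyme of the matrix, had log2 ratios of 1.55, 2.62, 2.24, 2.80 and 2.19 in replicates 1 to 5. Every array was high, replicate 1 least so, and the arrays with chs2Δ in Cy3 were the highest. SOD2 was 4.86-fold higher in chs2Δ (log2 2.28, SE 0.16, adjusted p = 4.98e-06 from limma). The rise was 2.76-fold with median centring and 0.91 on the log2 scale with median centring and no background correction, a setting chosen after seeing the data. SOD2 stood at percentile 98.6 of all genes tested and had the largest log2 ratio of the 35 genes under loess, but GND2 lay above it with median centring (1.64 against 1.46) and with an offset of 0 (2.34 against 2.30). SOD1 (YJR104C), the copper and zinc enzyme that makes up most of the cytosolic activity, had log2 ratios of 0.27, -0.05, 0.35, 0.00 and 0.24. The arrays with chs2Δ in Cy5 were above 0 and those with Cy3 were near it, and SOD1 did not pass (log2 0.16, SE 0.07, adjusted p = 0.0723). Under 17 settings of processing and replicates, the reported one included, SOD1 was called higher in 6. With median centring SOD1 was lower (log2 -0.67, adjusted p = 4.65e-05 from limma). CCS1, the chaperone that loads copper into Sod1, was 1.14-fold higher (log2 0.19, SE 0.06, adjusted p = 0.0216), and it was lower with median centring (log2 -0.47). Its call was lost without replicate 1, 4 or 5, with adjusted p of 0.0542, 0.0562 and 0.0744, and with an offset of 0 (0.144). It was also lost with the slide as the replicate, and CCS1 was called higher in 11 of the 17 settings.

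The 2 catalases moved in opposite directions. CTT1 (YGR088W), the cytosolic catalase T that is induced by stress, had log2 ratios of 0.22, 0.97, 0.63, 1.17 and 0.55 in replicates 1 to 5. Replicate 1 was the lowest, and the arrays with Cy3 lay above those with Cy5. CTT1 was 1.63-fold higher in chs2Δ (SE 0.13 on the log2 scale, adjusted p = 0.00112), and between 1.27-fold without background correction and 2.26-fold with an offset of 0. CTA1 (YDR256C), the peroxisomal catalase A, had log2 ratios of -0.33, -0.22, -0.36, -0.26 and -0.18. All arrays were below 0 by a small amount, and CTA1 stood at 0.831 of wild type (SE 0.05 on the log2 scale, adjusted p = 0.00182), but with median centring its log2 ratio was -0.01 (adjusted p = 0.894), and its chs2Δ signal was above background on 4 arrays only. CCP1 (YKR066C), the cytochrome c peroxidase of the mitochondrial intermembrane space, had log2 ratios of -0.97, -0.65, -0.77, -0.42 and -0.91. It was low on all arrays, least in replicate 4, and fell to 0.596 of wild type (log2 -0.75, SE 0.08, adjusted p = 7.44e-05), or 0.388 with median centring.

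In the thioredoxin system the cytosolic reductase fell, while both genes of the mitochondrial pair were higher. TRR1 (YDR353W), the cytosolic thioredoxin reductase, was measured on 4 arrays, since its spot on replicate 3 was marked as poor and left out. Its log2 ratios were -1.25, -1.02, -0.82 and -1.07 in replicates 1, 2, 4 and 5. All measured arrays were well below 0, and TRR1 fell to 0.486 of wild type (log2 -1.04, SE 0.08, adjusted p = 1.93e-05), the largest fall among the 35 genes and at percentile 5.03 of all genes tested. With median centring it stood at 0.294. TRR2 (YHR106W), the mitochondrial reductase, had log2 ratios of 0.16, 0.40, 0.54, 0.55 and 0.28. It was above 0 on every array and 1.30-fold higher on average (SE 0.07 on the log2 scale, adjusted p = 0.00133), and with median centring it was no longer called (log2 0.10, adjusted p = 0.217).

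TRX3 (YCR083W), the mitochondrial thioredoxin, had log2 ratios of 0.26, 1.03, 0.51, 1.27 and 0.56 in replicates 1 to 5. The arrays with Cy3 were the highest and replicate 1 the lowest. TRX3 was 1.65-fold higher in chs2Δ (SE 0.14 on the log2 scale, adjusted p = 0.00166), and 1.17-fold and no longer called with median centring (adjusted p = 0.136). The cytosolic thioredoxins had small ratios. TRX1 (YLR043C) had 0.42, 0.12, 0.14, 0.40 and 0.14 and TRX2 (YGR209C) 0.30, 0.18, 0.15, 0.12 and 0.44, with means of 0.24 for either (adjusted p = 0.0106 and 0.00832). No array lay below 0 for either gene, yet both were lower with median centring, at -0.31 and -0.46. Neither was called with an offset of 0 (adjusted p = 0.0521 and 0.0503 from limma).

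Of the 5 peroxiredoxins, 3 were higher, 1 was lower and 1 did not pass. PRX1 (YBL064C), the mitochondrial peroxiredoxin, had log2 ratios of 1.21, 1.62, 1.60, 1.99 and 1.70 in replicates 1 to 5. All arrays were high, and PRX1 was 3.09-fold higher in chs2Δ (log2 1.63, SE 0.10, adjusted p = 2.64e-06 from limma). The paralogues TSA1 and TSA2, both cytosolic, moved apart. TSA2 (YDR453C), the inducible form, had 0.77, 1.68, 1.07, 1.30 and 1.18. TSA1 (YML028W), the abundant form that also acts as a chaperone, had -0.26, -0.66, -0.29, -0.45 and -0.23. Every array of TSA2 lay above 0 and every array of TSA1 below it. TSA2 was 2.30-fold higher (log2 1.20, SE 0.12, adjusted p = 2.97e-05), between 1.49-fold without background correction and 3.91-fold with an offset of 0, and TSA1 fell to 0.770 (log2 -0.38, SE 0.07, adjusted p = 0.0018), or 0.457 with median centring.

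AHP1 (YLR109W), a cytosolic peroxiredoxin that acts mainly on alkyl hydroperoxides, was the member with the brightest spot and the one that varied most. Its log2 ratios were 1.70, 1.01, 2.10, 0.58 and 2.30 in replicates 1 to 5. The arrays with chs2Δ in Cy5 were all above those with chs2Δ in Cy3, with means of 2.04 and 0.79. AHP1 was 2.91-fold higher (log2 1.54, SE 0.24, adjusted p = 0.000473), and its log2 means on the 3 slides were 1.70, 1.56 and 1.44. With median centring it was 1.40-fold higher (adjusted p = 0.0452), and with median centring and no background correction its log2 ratio was -0.08 (adjusted p = 0.542). DOT5, the nuclear peroxiredoxin, had a log2 ratio of 0.13 (adjusted p = 0.0822), between -0.07 and 0.21 on the arrays, and was lower with median centring (log2 -0.20, adjusted p = 0.0171).

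Of the 5 glutaredoxins among the 35 genes, the dithiol forms GRX1 and GRX2 were higher and the monothiol forms GRX3, GRX4 and GRX5 lower. GRX1 (YCL035C), a cytosolic dithiol glutaredoxin, had log2 ratios of 1.42, 1.90, 1.79, 2.18 and 1.87 in replicates 1 to 5. It was high on every array and 3.56-fold higher in chs2Δ on average (log2 1.83, SE 0.10, adjusted p = 1.4e-06). GRX2 (YDR513W), its paralogue with cytosolic and mitochondrial forms, had 0.33, 0.62, 0.45, 0.55 and 0.48. These values were close together and all below those of GRX1, with a mean rise of 1.40-fold (SE 0.06 on the log2 scale, adjusted p = 0.000106) that was 1.15-fold without background correction and 1.89-fold with an offset of 0.

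The monothiol glutaredoxins take part in iron sensing and the making of iron-sulfur proteins. GRX3 (YDR098C), found in nucleus and cytosol, had log2 ratios of -0.19, -0.24, -0.50, -0.34 and -0.56, and its paralogue GRX4 (YER174C) had -0.49, -0.81, -0.53, -0.53 and -0.31. GRX5 (YPL059W), in the mitochondrial matrix, had -0.29, -0.70, -0.40, -0.54 and -0.32. No array of these 3 genes lay above 0. The means were 0.776 of wild type for GRX3 (adjusted p = 0.00146; 0.481 with median centring), 0.690 for GRX4 (adjusted p = 0.000242) and 0.732 for GRX5 (adjusted p = 0.000536). The chs2Δ signals of GRX4 and GRX5 were above background on 3 arrays only, and with median centring and no background correction neither was called (log2 -0.06 and -0.01). Glutaredoxins outside the 35 genes did not follow this split. The monothiol GRX6 and GRX7 of the secretory pathway were higher (log2 1.98 and 0.32, adjusted p = 6.24e-07 and 0.00178), and GRX8, a dithiol form, was lower (adjusted p = 0.00156), with chs2Δ signal above background on 0 arrays and a positive log2 ratio with median centring (0.28). GRX7 and GRX8 were picked for mention after their values were seen.

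The 3 glutathione peroxidases showed small differences or none that could be measured. HYR1 (YIR037W), also called GPX3, is the peroxide sensor that oxidizes Yap1. Its log2 ratios were 0.60, 0.18, 0.59, 0.28 and 0.75 in replicates 1 to 5, so that the arrays with Cy5 lay above those with Cy3. HYR1 was 1.39-fold higher (log2 0.48, SE 0.09, adjusted p = 0.00137), and with median centring it was not called (log2 0.10, adjusted p = 0.375). GPX2 (YBR244W) had 0.14, -0.44, -0.38, -0.44 and -0.31, with replicate 1 alone above 0. Its mean stood at 0.820 of wild type (adjusted p = 0.0199), its chs2Δ signal was above background on 3 arrays, its log2 ratio was 0.03 with median centring, and the call was lost when any 1 of replicates 2 to 5 was left out (adjusted p of 0.0542 to 0.0727) and with the slide as the replicate (0.178). GPX1 (YKL026C), the form induced by glucose starvation, was not above background in either strain on any array. Its signal over background was 11.0 to 64.8 intensity units in chs2Δ and 24.3 to 71.5 in wild type, and its ratios, although plotted, are not read as a fold change.

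The enzymes of glutathione synthesis moved in opposite directions. GSH1 (YJL101C), the glutamate-cysteine ligase that limits the rate of synthesis, had log2 ratios of 1.07, 0.92, 0.95, 1.10 and 0.81 in replicates 1 to 5. GSH2 (YOL049W), the glutathione synthetase that completes the tripeptide, had -0.58, -0.72, -0.51, -0.68 and -0.68. Both genes varied little between arrays, and no array crossed 0. GSH1 was 1.96-fold higher in chs2Δ (SE 0.06 on the log2 scale, adjusted p = 2.64e-06) and GSH2 fell to 0.644 of wild type (SE 0.05, adjusted p = 1.49e-05). With median centring GSH1 was 1.39-fold higher and GSH2 at 0.429. GLR1, the glutathione reductase, which serves cytosol and mitochondria, stood at 0.871 (log2 -0.20, SE 0.06, adjusted p = 0.0124), with all arrays between -0.34 and -0.10. Its call was lost without background correction (adjusted p = 0.0538), and with median centring it stood at 0.589.

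All 3 glutathione transferases were higher. GTT1 (YIR038C), the transferase of the endoplasmic reticulum, had log2 ratios of 1.17, 1.04, 1.31, 0.90 and 1.47, and ECM4 (YKR076W), an omega-class transferase of the cytosol, had 0.85, 1.05, 1.16, 1.01 and 1.39. Replicate 5 was the highest for both genes. GTT1 was 2.26-fold higher (SE 0.08 on the log2 scale, adjusted p = 5.64e-06) and ECM4 2.13-fold (SE 0.08, adjusted p = 5.71e-06), against 1.45-fold and 1.86-fold with median centring. GTT2, which is found in mitochondria, was 1.48-fold higher (log2 0.57, SE 0.06, adjusted p = 6.31e-05), between 0.36 and 0.70 on the arrays, and was not called with median centring (log2 0.10, adjusted p = 0.176).

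The dehydrogenases that make NADPH in the pentose phosphate pathway were all higher. ZWF1 (YNL241C), the glucose-6-phosphate dehydrogenase at the entry of the pathway, had log2 ratios of 1.14, 1.68, 1.38, 1.38 and 1.16 in replicates 1 to 5. It was 2.55-fold higher in chs2Δ (log2 1.35, SE 0.08, adjusted p = 2.72e-06), with no array below 1. Of the 6-phosphogluconate dehydrogenases, GND1 (YHR183W), the major form, had 0.65, 0.92, 1.33, 0.78 and 1.24, and GND2 (YGR256W), the minor form, had 0.79, 1.98, 1.65, 1.73 and 1.93. Replicate 1 was the lowest array for all 3 genes, by far so for GND2. GND1 was 1.98-fold higher (SE 0.10 on the log2 scale, adjusted p = 5.17e-05), but 1.05-fold with median centring (adjusted p = 0.522) and at a log2 ratio of -0.47 with median centring and no background correction. GND2 was 3.07-fold higher (SE 0.16, adjusted p = 3.64e-05), 3.12-fold with median centring, 1.82-fold without background correction and 5.05-fold with an offset of 0.

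The regulators did not pass the test. YAP1 (YML007W) averaged a log2 ratio of 0.02 (SE 0.06, adjusted p = 0.741), with arrays between -0.18 and 0.15, and it was lower with median centring (log2 -0.60, adjusted p = 0.000161). SKN7 (YHR206W) had -0.09 (SE 0.06, adjusted p = 0.18), with arrays between -0.24 and 0.01, and was lower at -0.17 with median centring (adjusted p = 0.0439). The activity of both factors is set largely by oxidation, location and phosphorylation of the protein, which an mRNA ratio does not measure.

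In 5 sets a mitochondrial gene was set against its cytosolic counterparts on the same array. Mitochondrial forms had the larger mean log2 ratio in 4 of the 5 sets, and the mean difference for GRX5 was 0.00. The mitochondrial genes GTT2 and CCP1 were in no set. GTT2 rose less (log2 0.57) than the cytosolic transferase ECM4 (1.09), and CCP1 fell (-0.75). The difference of log2 ratios was 2.12 for SOD2 minus SOD1 (SD 0.62, n = 5 arrays) and lay between 1.28 and 2.79, positive on 5 of 5 arrays. It was 0.84 for PRX1 minus the mean of TSA1, TSA2 and AHP1 (SD 0.41, positive on 5 of 5 arrays, 0.47 to 1.51). That mean includes TSA1, which fell, and against AHP1 alone PRX1 was the lower of both on replicates 1, 3 and 5. For TRR2 minus TRR1 it was 1.39 (SD 0.03, n = 4 arrays) and lay between 1.35 and 1.42, the narrowest spread of all differences. The difference for TRX3 minus the mean of TRX1 and TRX2 was 0.48 (SD 0.46, n = 5), positive on 4 of 5 arrays, with replicate 1 at -0.10. For GRX5 minus the mean of GRX3 and GRX4 it was 0.00 (SD 0.13), between -0.17 and 0.12. The peroxisomal CTA1 minus the cytosolic CTT1 gave -0.98 (SD 0.35), negative on 5 of 5 arrays.

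With 5 arrays the two-sided exact sign-flip test cannot give a p below 0.0625, and with 4 arrays none below 0.125, so no difference could reach 0.05. The p was 0.0625 (0.102 adjusted over 13 differences) for the superoxide dismutases, the peroxiredoxins and the catalases, 0.125 (adjusted 0.162) for the thioredoxins and the reductases, and 1 for the monothiol glutaredoxins, all from exact permutations of signs. The differences for SOD2, TRR2, PRX1, TRX3 and CTA1 kept their sign under all alternatives tried, whereas GRX5 minus GRX3 and GRX4 lay between -0.11 and 0.66 and changed sign with the setting. Over all members with a known main location, 5 of 7 mitochondrial genes (71.4%) were higher and 2 lower (median log2 ratio 0.57), against 14 higher and 6 lower of 21 cytosolic genes (66.7% higher, median 0.48), and 35.7% higher and 36.0% lower of all genes. With median centring the counts were 2 higher and 2 lower for the mitochondrial genes (median 0.10), and 9 higher and 10 lower for the cytosolic ones (median 0.07).

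**Figure D2:**
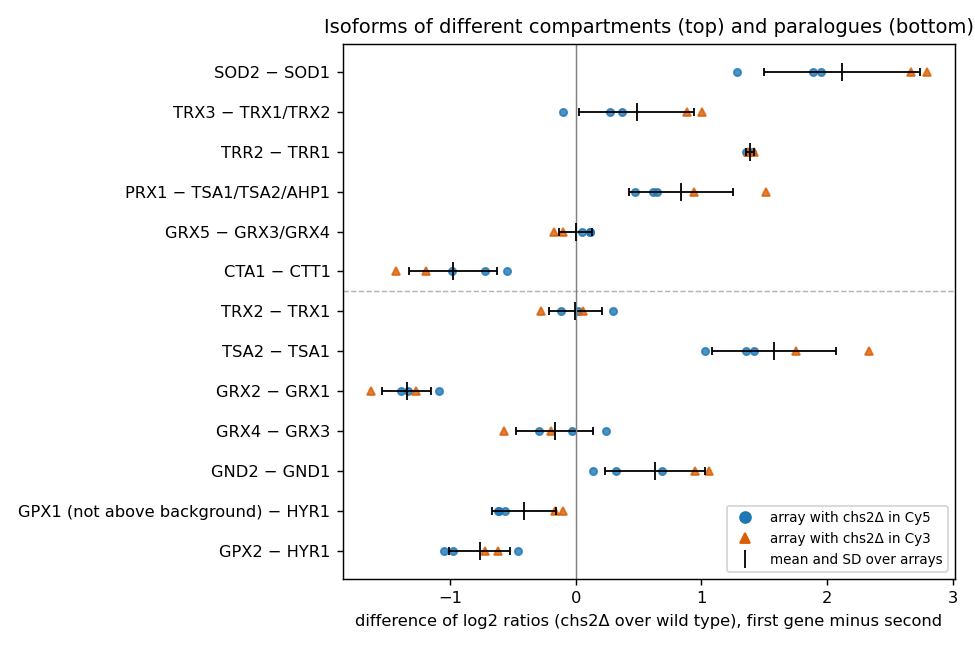
Difference of log2 ratios (chs2Δ over wild type, first gene minus second, horizontal axis) on each array, for forms of different compartments above the dashed line and paralogues below it. Circles are arrays with chs2Δ in Cy5, triangles those with Cy3, and bars are the mean and SD over arrays. TRR2 − TRR1 is the tightest set of points at a mean of 1.39, and TRX2 − TRX1 and GRX5 − GRX3/GRX4 straddle 0.

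Between paralogues the largest differences were those of the peroxiredoxins and the dithiol glutaredoxins. TSA2 minus TSA1 was 1.58 (SD 0.50, between 1.03 and 2.33), GND2 minus GND1 0.63 (SD 0.40, between 0.14 and 1.06) and GRX2 minus GRX1 -1.35 (SD 0.20, between -1.63 and -1.09). Each had the same sign on 5 of 5 arrays, with an exact sign-flip p of 0.0625 (adjusted 0.102). Without background correction GND2 minus GND1 changed sign, at -0.14. TRX2 minus TRX1 was -0.00 (SD 0.21, exact p = 1) and lay between -0.27 and 0.30. GRX4 minus GRX3 was -0.17 (SD 0.30, exact p = 0.312, adjusted 0.369), and 0.71 with median centring. GPX2 minus HYR1 was -0.77 (SD 0.25, exact p = 0.0625, adjusted 0.102) and 0.23 with median centring and no background correction. GPX1 minus HYR1 is not read, since the GPX1 signals were not above background. The probe sequences were not available to check, so binding of a paralogue's cRNA to the wrong spot was not tested.

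The genes around these enzymes moved both ways. Among 8 further genes of the pentose phosphate pathway, 4 were higher and 4 lower, against 35.7% and 36.0% of all genes, and the median log2 ratio was -0.02. With median centring 3 were higher and 5 lower, and the median was -0.74. NQM1, a transaldolase, had log2 ratios of 1.69 to 2.36 on the 5 arrays and was 4.48-fold higher (adjusted p = 7.53e-07 from limma), and SOL4, a 6-phosphogluconolactonase, was 2.98-fold higher (adjusted p = 2.84e-05). RPE1, the ribulose-phosphate epimerase, fell to 0.509 (adjusted p = 9.2e-06) and RKI1, the ribose-phosphate isomerase, to 0.592 (adjusted p = 0.000502). Of 7 other sources of NADPH, 6 were higher and 0 lower, with a median of 0.86. Without background correction 4 were higher and 0 lower, with a median of 0.34. The calls lost were of small rises, and included a gene whose chs2Δ signal was not above background on any array. UTR1, an NAD kinase, was 3.84-fold higher (adjusted p = 5.32e-07). ALD6, the cytosolic aldehyde dehydrogenase, was 2.93-fold higher (adjusted p = 0.00372), with replicate 1 at -0.08 and the other arrays between 1.46 and 2.89, and it was not called with median centring (log2 0.78, adjusted p = 0.0636). With median centring UTR1 was 2.40-fold higher and RPE1 at 0.338. Without background correction NQM1 was 2.59-fold and SOL4 1.72-fold higher, and SOL4 was 5.64-fold higher with an offset of 0.

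Of 10 repair and detoxification genes, 5 were higher and 3 lower, against 35.7% and 36.0% of all genes, with a median of 0.16. MCR1, the mitochondrial NADH-cytochrome b5 reductase, was 2.29-fold higher (adjusted p = 3.9e-05) and ZTA1, a quinone reductase, 1.69-fold (adjusted p = 0.000167). YHB1, the flavohemoglobin that removes nitric oxide, fell to 0.353 (adjusted p = 3.83e-07), with all arrays between -1.63 and -1.41, and OYE2, an NADPH oxidoreductase, fell to 0.450 on the 4 arrays that measured it (adjusted p = 4.34e-05). Of 16 other glutathione and glutaredoxin genes, 5 were higher and 9 lower, against the same shares of all genes, with a median of -0.27. Without background correction 6 of these 16 were higher and 6 lower, with a median of -0.13. GRX6, a glutaredoxin of the early secretory pathway, was 3.94-fold higher (adjusted p = 6.24e-07), and URE2, a nitrogen regulator with glutathione peroxidase activity, 2.59-fold (adjusted p = 0.000249). DUG2, of glutathione breakdown, fell to 0.691 with chs2Δ signal above background on 3 arrays (adjusted p = 0.000303), and YCF1, the vacuolar pump for glutathione conjugates, fell to 0.737 (adjusted p = 0.000174). With median centring GRX6 was 2.53-fold and URE2 1.55-fold higher, MCR1 had a log2 ratio of 0.58, and YHB1 stood at 0.231, OYE2 at 0.251 and YCF1 at 0.470.

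Of 16 partners of Yap1 and Skn7 and other stress regulators, 7 were higher and 6 lower, against 35.7% and 36.0% of all genes, with a median of 0.08. MSN4, which encodes 1 of the paired general stress activators, was 2.26-fold higher (adjusted p = 6.39e-07) and lay between 1.10 and 1.29 on all arrays. RIM15, a kinase that acts upstream of Msn2 and Msn4, was 1.68-fold higher (adjusted p = 7.27e-06), and YBP2, a homologue of the Yap1-binding protein, fell to 0.633 (adjusted p = 4.23e-05). Of 10 genes that supply the dismutases with copper and manganese, 5 were higher and 1 lower, with a median of 0.11. With median centring 3 were higher and 3 lower (median -0.05), and with no background correction as well 3 higher and 5 lower. CTR1, the high-affinity copper transporter, was 1.91-fold higher (adjusted p = 5.71e-06), the manganese transporter SMF1 1.56-fold (adjusted p = 0.00121), and SMF2, which carries manganese on to Sod2, stood at 0.876 (adjusted p = 0.0199). Over all 6 lists 32 of 67 genes were higher and 23 lower, 82.1% called, against 71.6% of all genes. With median centring and no background correction the log2 ratios were 1.17 for NQM1, 0.79 for GRX6, 0.73 for UTR1 and 0.46 for MSN4, and nearer 0 for ALD6 (0.29), MCR1 (0.20), URE2 (0.13), RIM15 (0.01) and DUG2 (-0.04).

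**Figure D3:**
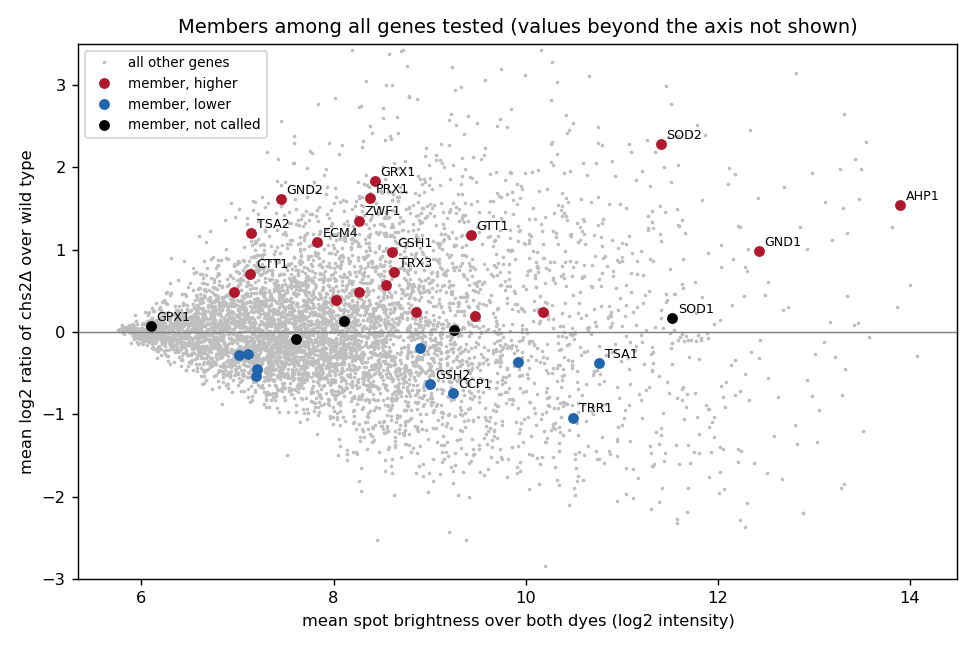
Mean log2 ratio of chs2Δ over wild type (vertical axis) against mean spot brightness over both dyes and 5 arrays (horizontal axis, log2 intensity) for the genes tested, grey, with the 35 members in red where higher, blue where lower and black where not called. AHP1 is the brightest member, and GPX1, at the far left, was not above background.

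The shift between the scalings followed spot brightness, at -1.06 for AHP1, the brightest member, and 0.90 for GPX1, the dimmest. Leaving out the background correction moved GND2 most, by -0.75, and then TSA2, by -0.62. Under median centring 26 of the 35 genes had a lower ratio than under loess, and those with a higher ratio, GND2, GRX4, GRX5, TSA2, CTT1, CTA1, GPX2, GRX2 and GPX1, were the 9 dimmest. Brightness reflects the probe as well as the mRNA, and levels of different genes are not compared. Without background correction or with an offset of 0 the dim genes CTT1, GRX2, TSA2 and GND2 changed in size but kept their direction. Under the loess fit and 16 alternatives of background, scaling, dye, slide, marked spots, dim genes, source of the ratios and replicates, 19 genes were called in 1 direction, 12 higher and 7 lower. These were SOD2, CTT1, TSA2, AHP1, PRX1, GRX1, GRX2, GSH1, GTT1, ECM4, ZWF1 and GND2, which were higher, and CCP1, TRR1, TSA1, GRX3, GRX4, GRX5 and GSH2, which were lower. With median centring and no background correction as a further alternative, 14 were left, 9 higher and 5 lower, and AHP1, GRX4, GRX5, GSH1 and GTT1 were no longer called. Among those left the log2 ratio was 0.85 for GRX1, 0.74 for PRX1, 0.55 for ZWF1 and 1.00 for GND2. No such count was made over all genes, so whether 19 of 35 is a high share was not tested. The alternatives reuse the same 5 arrays.

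**Figure D4:**
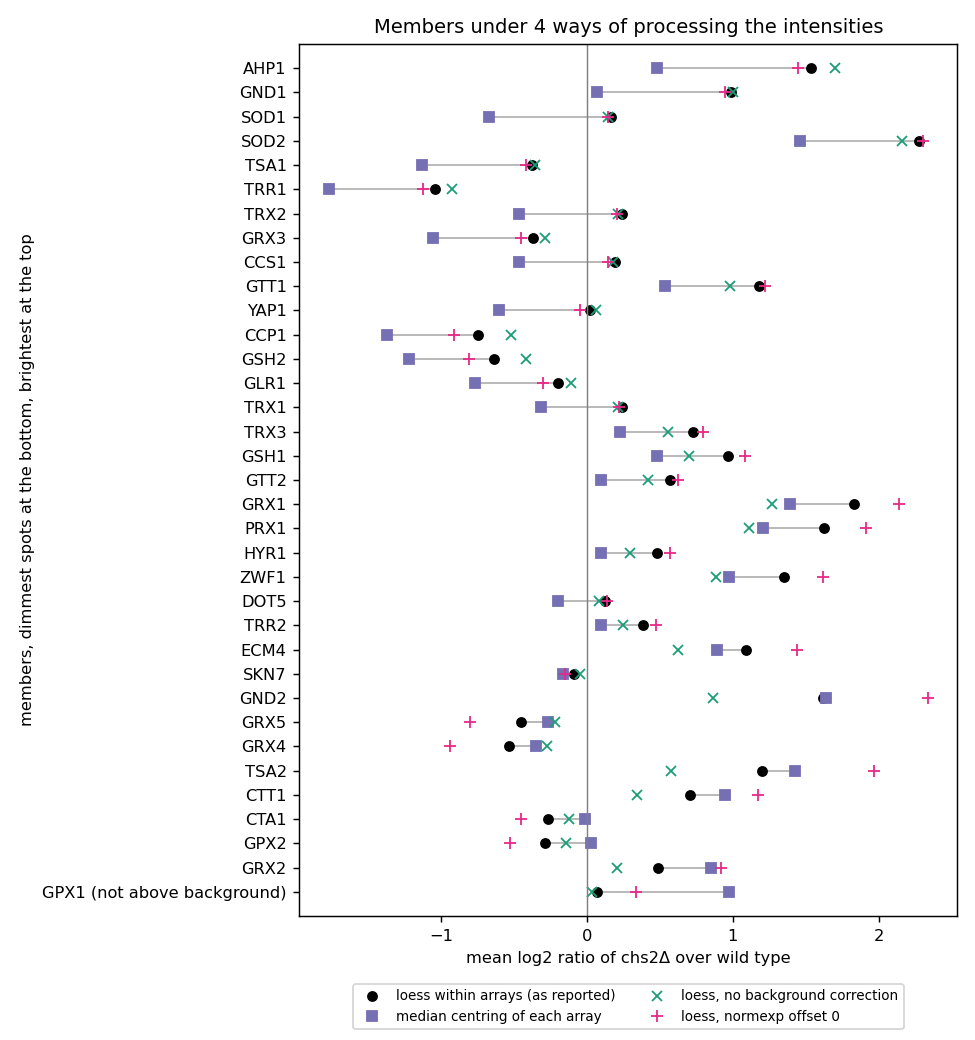
Mean log2 ratio of chs2Δ over wild type (horizontal axis) of the 35 genes under 4 ways of processing the same intensities, with the brightest gene at the top. Squares (median centring) lie left of circles (loess) for bright genes such as SOD1, at -0.67 against 0.16. Crosses (no background correction) lie nearest 0 for dim ones such as GRX2, but squares do so for CTA1 and GPX2.

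Dye orientation and replicate 1 moved with several of these ratios. The arrays of opposite orientation did not overlap for 19 of 34 genes measured in full (55.9%), against 41.6% of all such genes. No gene among 6236 had a dye effect at an adjusted p below 0.05 (limma), although 1291 had an unadjusted p below 0.05, among them 11 of the 35, and the smallest adjusted p among these was 0.134. The mean with chs2Δ in Cy5 and the mean with chs2Δ in Cy3 were 2.00 and 2.71 for SOD2, 0.47 and 1.07 for CTT1, 0.44 and 1.15 for TRX3 and 0.65 and 0.23 for HYR1. Replicate 1 was the lowest array for 12 of the 20 higher genes (60%), against 42.8% of all higher genes. Slides 2 and 3 hold both orientations. Of the 30 called genes, 29 had the same sign on all 3 slides, with GPX2 as the exception. The genes were called from these same arrays, so agreement in sign was largely set in advance. It says nothing about dye or slide, and the count was not made over all called genes. The part of dye and of replicate 1 in the size of these ratios was not tested further.

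**Figure D5:**
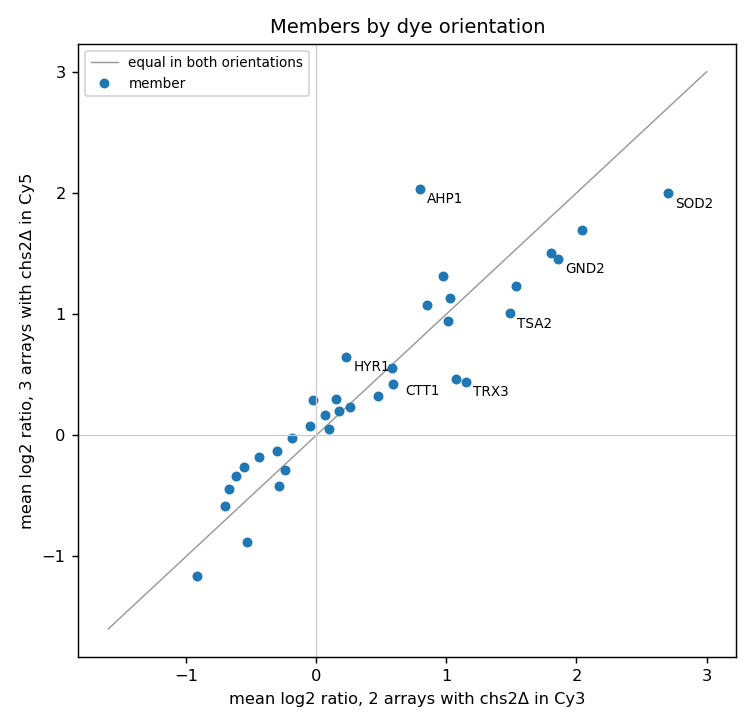
Mean log2 ratio of chs2Δ over wild type on the 3 arrays with chs2Δ in Cy5 (vertical axis) against the 2 arrays with chs2Δ in Cy3 (horizontal axis) for the 35 genes, with the line of equality. AHP1 lies far above the line at 2.04 against 0.79, and SOD2, CTT1, TRX3, TSA2 and GND2 lie below it.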

How the data were processed

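Ratios of chs2Δ over wild type were computed from 5 two-colour Agilent arrays. The deposited scanner files, made by the authors with ImaGene (version 6.0.0 per the file headers), hold the intensity of each spot and of its local background in either dye, neither corrected nor normalized. The authors also deposited log2 ratios of Cy5 over Cy3, background corrected and lowess normalized within arrays, which served as an alternative. Rows were named by the order of spots in the scanner output, and the values correlated with the ratios computed here at 0.9986 or more on each array.

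Spots marked poor (111 to 244 gene spots per array) were left out. Background was corrected with normexp (offset 50), a loess curve (span 0.3) was fitted within arrays, and a gene was given the mean of its spots, 2 spots for 18 of the 35 genes and 1 for 17. Ratios were fitted with lmFit and eBayes in limma 3.58.1 (statmod 1.5.0, jsonlite 2.0.0, R 4.3.3), with Benjamini-Hochberg adjustment over 6246 genes and calls at adjusted p below 0.05. Signals at least 2 background SD over the local background median were taken as above background. Differences between genes on the same array were tested by exact sign flips. Between 2 arrays the ratios correlated at 0.869 to 0.978 over all genes. The number of arrays limits the precision.

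The script was tested on simulated data with the same dye shift for every spot and no slide effect. That test therefore does not cover dye effects of single genes, dye effects that change with brightness, or slide effects. The 35 genes and the 6 further lists were chosen with earlier results of these data known. Any of the 35 could be named, with values per array for isoform sets and for called changes of at least 1.5-fold, and at most the 2 largest rises and 2 largest falls of each further list. Of 6256 genes 5756 were matched to RefSeq names. Alternatives covered background, offset, scaling, dye, slide, flags, dim genes, the deposited ratios, thresholds and each replicate left out. Promoter sequences were not used here, so motifs were not counted.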

Additional observations from a re-analysis of the deposited data

Results flagged for a closer look

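In 48 groups of array values tested for an outlying array, 2 stood out, and chance flags about 1 in 20 groups. GPX2 had a log2 ratio of chs2Δ over wild type of 0.14 in replicate 1, far from the other arrays, which lay between -0.44 and -0.31. GND2 had 0.79 in replicate 1, and 1.65 to 1.98 on the others.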

How the results depend on the processing

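The number of members higher was 20, and 13 with median centring or 10 with median centring and no background correction, which was chosen after seeing the data. The number lower was 10, and 15 and 13 under these settings. Of all 6246 genes, 2595 were higher and 2597 lower with median centring. With no background correction as well, 2451 were higher and 2524 lower. Leaving out 1 replicate gave 19 to 22 members higher and 9 to 10 lower. With median centring the log2 ratio changed sign for SOD1 (-0.67), CCS1 (-0.47), TRX1 (-0.31), TRX2 (-0.46), DOT5 (-0.20), GPX2 (0.030) and YAP1 (-0.60). With no background correction as well it changed sign for SOD1 (-1.14), CCS1 (-0.71), CTA1 (0.14), TRX1 (-0.46), TRX2 (-0.81), AHP1 (-0.079), DOT5 (-0.20), GPX2 (0.18), HYR1 (-0.050), GTT2 (-0.10), YAP1 (-0.77) and GND1 (-0.47). YAP1 also changed sign with an offset of 0 (-0.044) and lay between -0.0079 and 0.075 when 1 replicate was left out.

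Among the differences, GRX5 minus GRX3 and GRX4 changed sign with an offset of 0 (-0.11), with poor spots kept (-0.0047), with all marked spots left out (-0.0011) and in the deposited ratios (-0.022), and lay between -0.029 and 0.043 when 1 replicate was left out. TRX2 minus TRX1 changed sign without background correction (0.0024), with poor spots kept (0.013), with all marked spots left out (0.0033) and in the deposited ratios (0.0061), and lay between -0.079 and 0.064 when 1 replicate was left out. GRX4 minus GRX3 was 0.016 without background correction, 0.71 with median centring and 1.22 with median centring and no correction. GND2 minus GND1 was -0.14 without background correction. GPX1 minus HYR1, with GPX1 not above background, was 0.87 with median centring and 0.77 with no correction as well, where GPX2 minus HYR1 was 0.23. The cause of these changes was not tested. No paired analysis was possible because the labels form 1 group of arrays, which leaves no second group to share replicate numbers, and the ratio of each array already sets both cultures against each other. Signal over background limits the dim genes GPX1, GPX2, CTA1, GRX4 and GRX5.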
